A study of Mus musculus with 6 samples.

Results

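In all, 10 genes of threonine and glycine breakdown and of the folate cycle were followed in WT and Oct6 KO epiblast-like cells (EpiLCs), the formative cells that naïve mouse embryonic stem cells form within 48 h of differentiation. The members were chosen by name, as the enzymes that turn threonine into glycine (Tdh, Gcat), the proteins of the glycine cleavage system (Gldc, Amt, Gcsh) and enzymes of the folate cycle (Shmt1, Shmt2, Mthfd1, Mthfd2, Mthfd1l), and all 10 were found among the 55416 genes of the counts file. The set was proposed with the difference of Tdh between these WT and KO libraries already known. The differences of the members are therefore given with their errors as a description, without p-values, and calls of members are counts only.

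RNA-seq was available for 3 WT and 3 Oct6 KO libraries. WT cells were the mouse embryonic stem cell line 46C, which carries GFP under the neural gene Sox1, and KO cells were a single clone of 46C with a homozygous insertion in Oct6 (Pou3f1), a POU transcription factor. Effects of the clone and of the genotype cannot be told apart. Both lines came from 2i+LIF medium and were kept for 48 h in N2B27 with 1% KSR, bFGF and Activin A on fibronectin. The growth factors are given at 12 ng/ml and 20 ng/ml in the sample labels and in µg/ml in the series text. Libraries held 10995505 to 14680930 counts. Values are CPM, counts scaled to the library size after TMM normalization in edgeR, and were measured in bulk RNA, in which fewer cells with a transcript and less transcript per cell cannot be told apart.

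Threonine dehydrogenase works in mitochondria and oxidizes threonine to an unstable intermediate that GCAT splits with coenzyme A into glycine and acetyl-CoA. The glycine cleavage system then passes a carbon of glycine to tetrahydrofolate, and the folate cycle carries such units to purines, thymidylate and methionine. Mouse embryonic stem cells are known for a high level of Tdh and for their need of threonine in the medium.

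Tdh was 5.17 times as abundant in KO EpiLCs as in WT EpiLCs, Gldc was 1.61 times as abundant, and the mitochondrial folate enzymes Mthfd2 and Shmt2 were at 0.489 and 0.703 times their WT level. In these 4 genes no KO library overlapped a WT library. The other 6 members, Gcat, Amt, Gcsh, Shmt1, Mthfd1 and Mthfd1l, overlapped between the groups in CPM. Of the 10 members, all of which passed the filter on low counts, 2 were called higher and 2 lower in KO EpiLCs at an adjusted p below 0.1 in edgeR's quasi-likelihood fit over 15746 genes, in which 11.8% of all genes tested were called higher and 12.5% lower. KO libraries lay above all WT libraries in 2 of 10 members and in 16.6% of all genes tested, and below them in 2 of 10 members and in 17.1% of all genes tested (33.7% in either direction). Tdh and Mthfd2 also differed by at least 1 on the log2 scale, which 6.21% of all genes tested did together with the adjusted p, 2.92% higher and 3.3% lower. Since the set was proposed from this comparison, nothing is read from these counts. The median log2 fold change was 0.039 over the members and 0.0014 over all genes tested. With the replicate number as a block, 4 members were called higher, Gcat and Shmt1 joining Tdh and Gldc, and 2 lower.

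**Figure D1:**
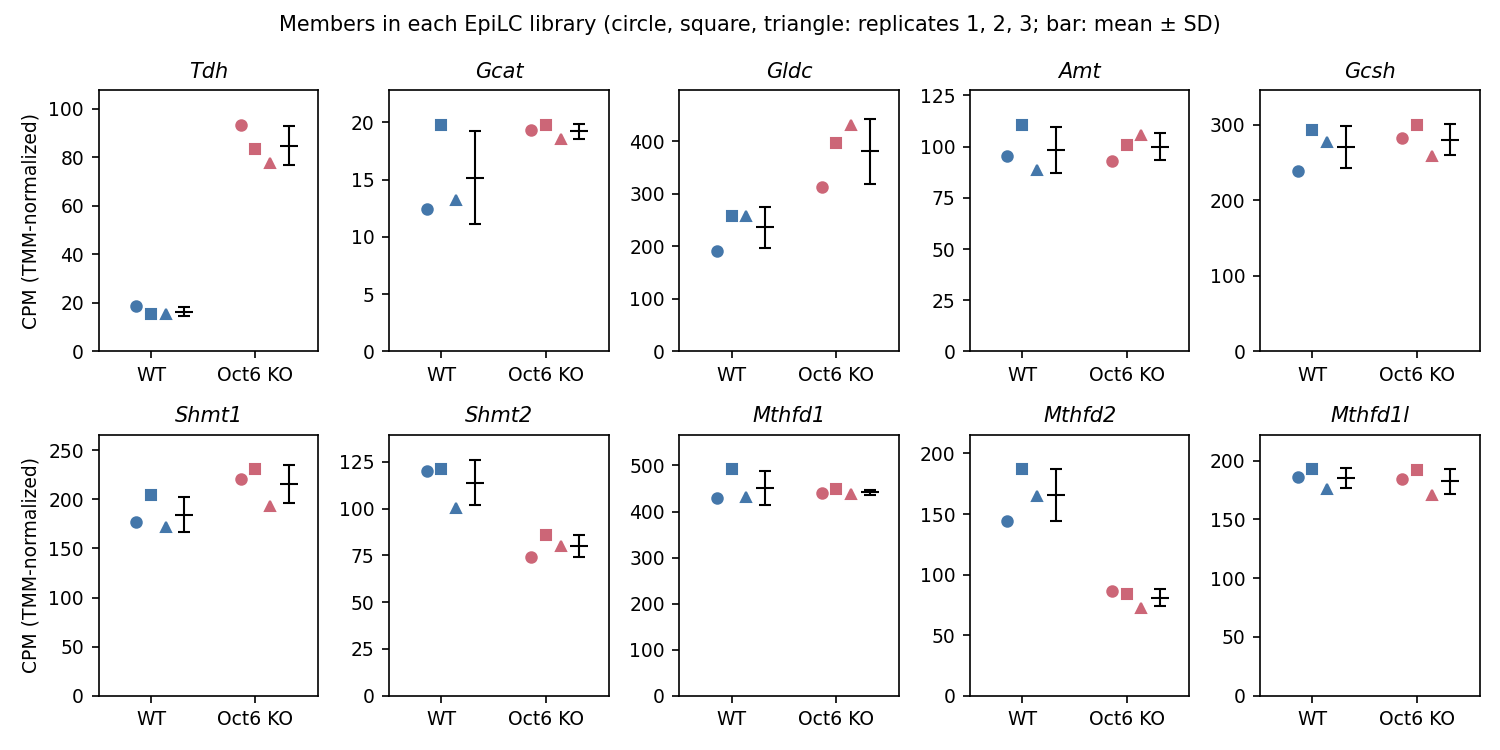
CPM of the 10 members (vertical axes, each from 0) in 3 WT and 3 Oct6 KO EpiLC libraries, with circles, squares and triangles for replicates 1, 2 and 3 and a bar for the mean ± SD. KO points lie above all WT points for Tdh and Gldc and below them for Shmt2 and Mthfd2, and overlap for the other 6 genes.

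Promoter sequences from RefSeq were at hand for 9 of the 10 members, all but Tdh, and each was found once at its gene in GRCm39. The 250 bases before the RefSeq start are printed for Gldc, Shmt2 and Mthfd2, 5′ to 3′ on the strand of the gene. These are the members beside Tdh in which KO and WT libraries did not overlap in CPM. The letters CCAAT or their reverse complement are in capitals. The spans are chr19:30152842-30153091 for Gldc, chr10:127358314-127358563 for Shmt2 and chr6:83294587-83294836 for Mthfd2, all on the minus strand. The RefSeq starts of Gldc, Shmt2 and Mthfd2 lie within the GENCODE spans of the genes, and for Mthfd2 the whole printed window does so.
Gldc: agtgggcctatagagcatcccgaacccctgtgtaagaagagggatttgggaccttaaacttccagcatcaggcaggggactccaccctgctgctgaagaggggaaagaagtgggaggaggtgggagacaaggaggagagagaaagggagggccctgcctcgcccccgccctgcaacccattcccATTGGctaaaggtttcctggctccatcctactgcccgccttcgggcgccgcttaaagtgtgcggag
Shmt2: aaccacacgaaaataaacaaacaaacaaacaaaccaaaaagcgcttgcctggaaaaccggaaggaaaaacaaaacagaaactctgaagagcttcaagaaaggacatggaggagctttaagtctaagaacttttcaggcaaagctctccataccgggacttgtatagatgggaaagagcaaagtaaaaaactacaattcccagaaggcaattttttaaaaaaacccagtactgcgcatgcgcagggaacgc
Mthfd2: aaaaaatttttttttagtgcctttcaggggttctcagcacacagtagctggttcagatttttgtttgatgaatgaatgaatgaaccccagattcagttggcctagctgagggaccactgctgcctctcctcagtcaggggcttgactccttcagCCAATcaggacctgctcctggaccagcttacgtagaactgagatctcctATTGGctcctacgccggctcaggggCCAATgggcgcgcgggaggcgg
The octamer ATGCAAAT, known as a motif of POU factors, was searched on both strands of this window and was in 0 of the 9 members and in 1.6% of 32851 promoters. The C/EBP-ATF response element TGATGNAAN, known from genes of the amino acid response, was in 0 of the 9 and in 3.44% of the promoters. The CCAAT box, searched after the sequences were read, was in 6 of the 9 members (Gldc, Amt, Gcsh, Shmt1, Mthfd1 and Mthfd2) and in 33.8% of the promoters. Mthfd2 held it 3 times, Gldc once and Shmt2 not at all. A match of letters describes the window and no site of binding.

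Tdh, ENSMUSG00000021953.15, lies on the minus strand of chromosome 14 (63724585 to 63751098, GRCm39). It had 249, 167 and 226 counts in the WT libraries, in the order of their replicate numbers 1 to 3, against 1153, 1080 and 1030 counts in the KO libraries. Normalized, these were 18.6, 15.2 and 15.3 CPM in the WT libraries against 93.4, 83.3 and 77.5 CPM in the KO libraries. The lowest KO library thus stood far above the highest WT library, while the spread within a group was small. The log2 fold change was 2.37 (standard error, SE, 0.12, 95% interval 2.11 to 2.63), the 31st highest value among all genes tested. Between the WT and the KO library of one replicate number, log2 CPM differed by 2.32, 2.44 and 2.33. An antisense gene that shares 865 exon bases with Tdh, Gm17232, had 16 counts over all libraries together.

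The summed level of 8 naïve markers (Nanog, Klf2, Klf4, Esrrb, Zfp42, Tfcp2l1, Tbx3, Nr5a2) ran from 211 to 222 CPM in WT and from 318 to 399 CPM in KO libraries, and 5 of the 8 were called higher in KO EpiLCs, beside 11.8% of all genes tested. Klf4, Tfcp2l1 and Tbx3 were not called, with log2 differences of 0.46, 0.098 and −0.12. KO replicate 3 had the highest sum of the KO libraries. Its Tdh level was the lowest of them in CPM, but not when counts were divided by exon length and rescaled. On that scale KO replicate 2 was the lowest, at 39.3 against 41.4 in KO replicate 3. Markers of the pluripotent and formative state (Pou5f1, Sox2, Fgf5, Otx2, Dnmt3b, Pou3f1) were present in all libraries, with sums from 2633 to 2988 CPM, and Sox2, Fgf5 and Otx2 were called higher in KO EpiLCs. Markers of primitive endoderm (Gata4, Gata6, Sox17, Pdgfra) summed to between 4.06 and 4.78 CPM in WT and between 4.63 and 12.6 CPM in KO libraries, with Gata6 and Pdgfra called higher, and those of the primitive streak and mesoderm (T, Mixl1, Eomes, Mesp1) to between 5.88 and 6.49 and between 8.79 and 11.7 CPM, with Eomes called higher. Neural markers (Sox1, Pax6, Neurog2, Tubb3) summed to between 31.6 and 39.9 CPM in WT and between 22.4 and 24.2 CPM in KO libraries, with Sox1 and Tubb3 called lower. No marker was at 0 in every library, and Gata4, T, Mixl1, Mesp1, Pax6 and Neurog2 did not pass the filter on low counts. The part of these cell states in the results was not tested. Oct6 itself had 1563 to 2156 counts in WT and 1567 to 1825 counts in KO libraries. Counts per gene cannot tell a transcript that carries the insertion from one that lacks it.

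The genes around Tdh showed no difference of its size, the highest upper bound of their 95% intervals being 1.43. Within 500 kb of Tdh, measured between the lowest coordinates of the genes, 8 further genes were tested, with log2 fold changes from −0.34 to 0.45. Of the closest, Mtmr9, 32.5 kb away, had 71.2, 65.7 and 60.9 CPM in WT and 61.6, 57.2 and 58.1 CPM in KO EpiLCs (log2 difference −0.16, SE 0.10, edgeR adjusted p = 0.324). Fam167a, 50.7 kb away on the other side, had 0.15 (SE 0.32) at 1.83 to 3.21 CPM in WT and 2.33 to 2.67 CPM in KO libraries. Only Ctsb, which encodes the lysosomal protease cathepsin B, passed the threshold of 0.1, and it fell, with a log2 fold change of −0.27 (SE 0.11, edgeR adjusted p = 0.0879). This call was lost in DESeq2, without a filter on low counts and without any of the libraries except WT replicate 3, the adjusted p-values of the alternatives running from 0.0564 to 0.275. With the replicate block, Fdft1, squalene synthase, was called lower too, with a log2 fold change of −0.23 (adjusted p = 0.0498 from edgeR). Without WT replicate 1, Fdft1 (−0.33), Neil2 (−0.51) and Xkr6 (0.49) were called.

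**Figure D2:**
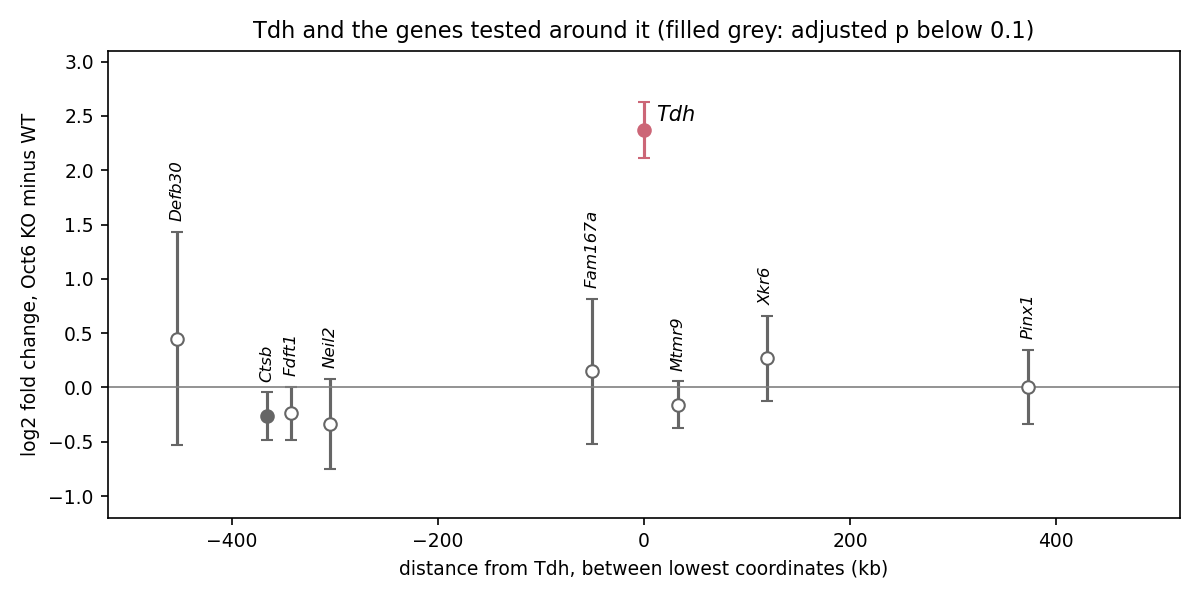
Log2 fold changes, Oct6 KO minus WT, with 95% intervals (vertical axis) of Tdh in red and of the 8 genes tested within 500 kb in grey, against the distance from Tdh between lowest coordinates in kb (horizontal axis). Tdh lies at 2.37, and the neighbours lie between −0.34 and 0.45.

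Genes with a profile most like that of Tdh were sought among those with an average log2 CPM of at least 1, by the root mean square distance between profiles of log2 CPM centred on their mean over the 6 libraries. The 5 nearest were Xist, the RNA of X inactivation (distance 0.15), D1Pas1 (0.15), Pkhd1 (0.21), Tex13b (0.21) and the pseudogene Gm13245 (0.21). D1Pas1 had 5.11 to 7.02 CPM in WT and 26.4 to 31.5 CPM in KO libraries, and Xist had 1.34 to 1.49 CPM in WT and 6.54 to 8.91 CPM in KO libraries. None of the other 9 members was among them. The distance takes in the size of the difference, and the highest log2 fold change of those members was 0.69, in Gldc, against 2.37 in Tdh. Their absence therefore follows from the fold changes.

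Gcat encodes glycine C-acetyltransferase, which takes up the product of TDH. The gene (ENSMUSG00000006378.16, chromosome 15, 78914708 to 78922553) had 12.5, 19.8 and 13.3 CPM in the WT libraries against 19.4, 19.7 and 18.5 CPM in the KO libraries. A further identifier named Gcat shares 1132 exon bases with it on the same strand and had 0 counts. How reads in shared bases were counted is not given. Gcat may therefore be counted too low in all libraries, and the ratio of Tdh to Gcat too high. WT replicate 2 reached the KO level, and the other WT libraries lay below it. The log2 fold change was 0.35 (SE 0.17, 95% interval −0.0036 to 0.70), and it was 0.22 without WT replicate 1 and 0.57, with a call, without WT replicate 2. Per unit of gene length, as TPM (counts divided by the length of all annotated exons of the gene and scaled to the same sum in every library), the ratio of Tdh to Gcat was 0.625, 0.323 and 0.484 in WT cells against 2.02, 1.77 and 1.76 in KO cells, so that the ratio was 3.88 times as high in KO cells and did not overlap. Whether Tdh was below Gcat in WT cells depended on the length used, since the ratio was 0.978 to 1.89 with the length of the canonical transcript.

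Of the glycine cleavage system, Gldc was higher in all KO libraries, whereas Amt and Gcsh overlapped between the groups. Gldc encodes the glycine decarboxylase (P protein), which performs the first step. The gene (ENSMUSG00000024827.11, chromosome 19, 30071975 to 30152871) had 191, 258 and 258 CPM in the WT libraries against 312, 398 and 432 CPM in the KO libraries. Replicate 1 was the lowest in both groups, and the differences within pairs, 0.71, 0.62 and 0.74 on the log2 scale, lay closer together than the libraries of a group. The log2 fold change was 0.69 (SE 0.13, 95% interval 0.42 to 0.96).

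Amt, the aminomethyltransferase (T protein) that hands the carbon to tetrahydrofolate (ENSMUSG00000032607.13, chromosome 9, 108173865 to 108179501), had 95.6, 111 and 88.8 CPM in the WT libraries against 93.2, 101 and 106 CPM in the KO libraries (log2 difference 0.025, SE 0.10, 95% interval −0.19 to 0.24). Gcsh, the lipoate-bearing carrier (H protein; ENSMUSG00000034424.6, chromosome 8, 117708549 to 117720320), had 239, 294 and 278 CPM and 282, 300 and 259 CPM (log2 difference 0.053, SE 0.10, 95% interval −0.16 to 0.27). For both genes WT and KO libraries were interleaved. The TPM ratio of Gldc to Gcsh was 0.199 ± 0.0150 (SD, n = 3) in WT cells against 0.313 ± 0.0650 in KO cells, and that of Gldc to Amt 0.632 ± 0.120 and 0.992 ± 0.101. Neither ratio overlapped between the groups.

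Both serine hydroxymethyltransferases convert serine and tetrahydrofolate into glycine and methylene-tetrahydrofolate, SHMT1 in the cytosol and SHMT2 in mitochondria. Shmt2 (ENSMUSG00000025403.6, chromosome 10, 127352266 to 127358323) had 120, 121 and 100.2 CPM in the WT libraries against 74.1, 86.0 and 80.2 CPM in the KO libraries. All KO libraries were lower than the lowest WT library, with a log2 fold change of −0.51 (SE 0.11, 95% interval −0.73 to −0.29). Shmt1 (ENSMUSG00000020534.15, chromosome 11, 60661185 to 60708167) had 177, 205 and 171 CPM in the WT libraries against 221, 231 and 194 CPM in the KO libraries.

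In CPM, WT replicate 2 of Shmt1 stood above KO replicate 3, although KO was the higher library in each of the 3 pairs. In TPM the groups did not overlap, with 96.7 to 102 in WT and 106 to 122 in KO libraries. The log2 fold change of Shmt1 was 0.22 (SE 0.10, 95% interval 0.0072 to 0.44). The gene was called without WT replicate 2 and without KO replicate 3, at 0.30 in both fits. The TPM ratio of Shmt2 to Shmt1 was 1.07, 0.934 and 0.922 in WT cells against 0.529, 0.587 and 0.653 in KO cells. The cytosolic form led in each KO library. Whether the 2 forms were level in WT cells depended on the length used. With the length of the canonical transcript the ratio was lower in both groups, 0.772 ± 0.0667 (SD, n = 3) and 0.466 ± 0.0490. On that scale the cytosolic form led in each WT library too, with ratios of 0.849, 0.739 and 0.729. Shmt1 shares 346 exon bases with Smcr8 on the other strand, and Shmt2 shares 727 with Ndufa4l2. Whether counting used the strand is not given in the sources used here.

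**Figure D3:**
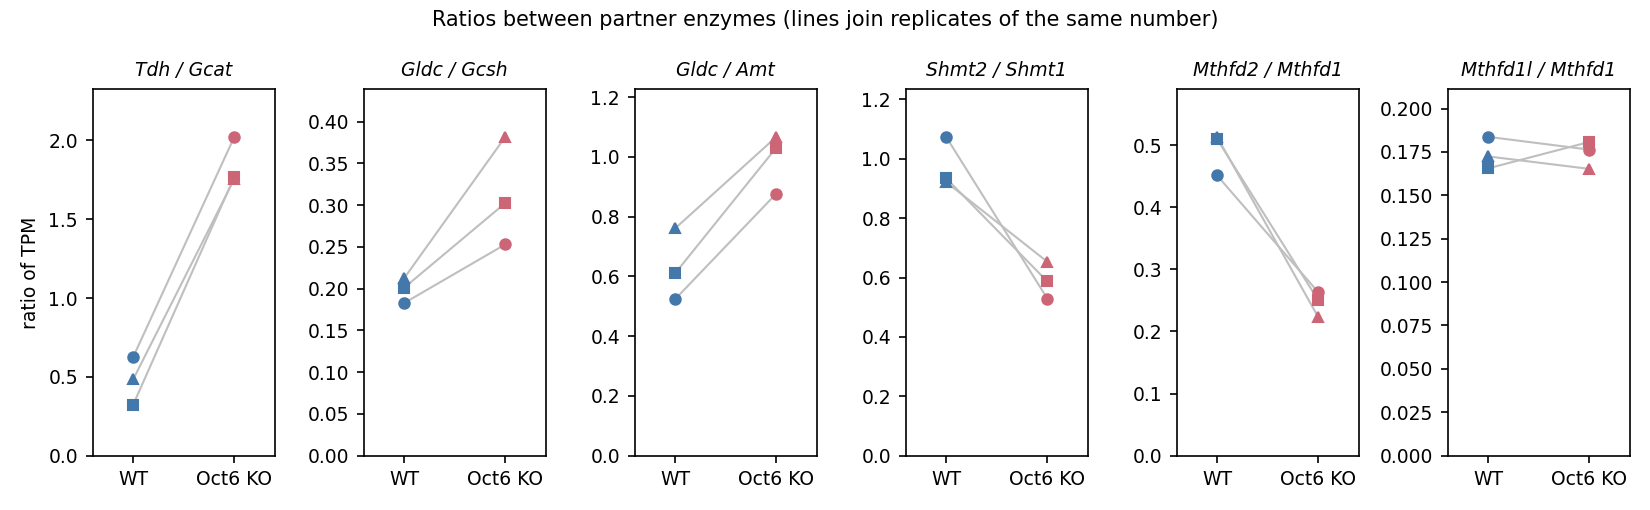
Ratios of TPM between partner enzymes (vertical axes, each from 0) in 3 WT and 3 Oct6 KO EpiLC libraries, with grey lines joining replicates of the same number. KO ratios lie above WT for Tdh to Gcat and for Gldc to Gcsh and Amt, below WT for Shmt2 to Shmt1 and Mthfd2 to Mthfd1, and overlap for Mthfd1l to Mthfd1.

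Mthfd2, the mitochondrial methylene-tetrahydrofolate dehydrogenase and cyclohydrolase, was the member with the largest decrease. The gene (ENSMUSG00000005667.9, chromosome 6, 83282673 to 83302890) had 144, 187 and 165 CPM in the WT libraries against 86.5, 83.5 and 72.7 CPM in the KO libraries, with every KO library below every WT library. The log2 fold change was −1.03 (SE 0.11, 95% interval −1.26 to −0.80). It lies in a part of chromosome 6 in which genes were lower in KO EpiLCs as a whole: the 138 other genes tested within 10 Mb had a median log2 fold change of −0.52, and Mthfd2 was −0.51 beyond it. For the other 9 members the same local median lay between −0.11 and 0.082, and the difference of Tdh beyond its local median was 2.43, that of Gldc 0.63 and that of Shmt2 −0.47.

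**Figure D4:**
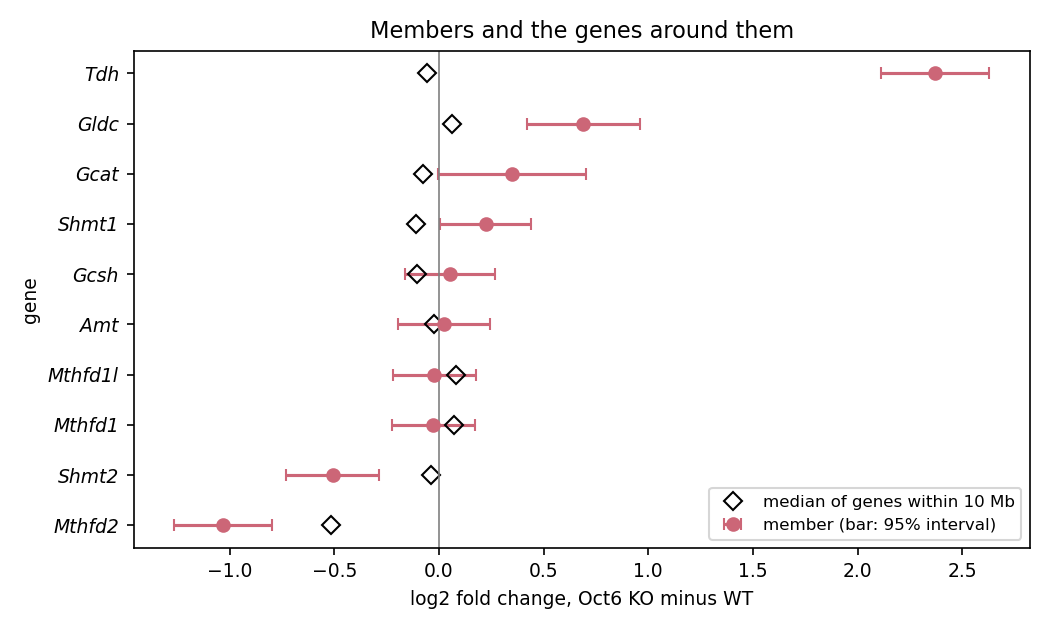
Log2 fold changes, Oct6 KO minus WT, of the 10 members with 95% intervals (red) and the median of the genes tested within 10 Mb of each (diamonds). Tdh lies at 2.37 and Mthfd2 at −1.03, and the local median stands out from 0 for Mthfd2 alone, at −0.52.

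The groups overlapped for the other folate dehydrogenase and for the formate-releasing ligase. Mthfd1, the cytosolic enzyme that joins the dehydrogenase, cyclohydrolase and ligase activities (ENSMUSG00000021048.8, chromosome 12, 76301984 to 76366588), had 429, 493 and 431 CPM in the WT libraries against 441, 448 and 438 CPM in the KO libraries (log2 difference −0.027, SE 0.094, 95% interval −0.22 to 0.17). Mthfd1l, the mitochondrial ligase that releases formate (ENSMUSG00000040675.18, chromosome 10, 3922870 to 4117081), had 186, 193 and 176 CPM and 184, 192 and 171 CPM (log2 difference −0.021, SE 0.095, 95% interval −0.22 to 0.18). The TPM ratio of Mthfd2 to Mthfd1 was 0.492 ± 0.0349 (SD, n = 3) in WT cells against 0.245 ± 0.0205 in KO cells, whereas that of Mthfd1l to Mthfd1 was 0.174 in both groups, with SDs of 0.0092 and 0.0080.

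On the scale of TPM, Gcsh was the most abundant member in WT EpiLCs at 409 ± 35.9 (SD, n = 3), followed by Mthfd1 at 318 ± 7.0, Mthfd2 at 156 ± 14.3, Amt at 130 ± 6.20, Shmt1 at 98.5 ± 2.93, Shmt2 at 96.1 ± 7.49, Gldc at 81.6 ± 13.2, Mthfd1l at 55.2 ± 1.72, Gcat at 18.7 ± 3.68 and Tdh at 8.56 ± 1.28. In this order, libraries overlapped between Shmt1 and Shmt2 and between Shmt2 and Gldc, and were apart between all other neighbours. In KO EpiLCs Gldc stood at 130 ± 21.4, level with Amt at 130 ± 11.7, Mthfd2 at 75.6 ± 7.70 and Shmt2 at 66.5 ± 2.57, and Tdh at 43.6 ± 5.75 was above Gcat at 23.5 ± 1.28, with no overlap. KO libraries overlapped between the neighbours Amt and Gldc and between Gldc and Shmt1. The level of Tdh exceeded that of 42.8% of the genes tested in WT EpiLCs and that of 79.1% in KO EpiLCs. With the length of the canonical transcript these shares were 58.4% and 88.5%. The order depended on the length used, since many transcripts are annotated per gene. The place of Gcat, also against Tdh, further depends on how reads in the bases shared with its further identifier were counted. With canonical transcripts in WT EpiLCs, Mthfd1l was at 104 ± 2.46 TPM and Amt at 90.7 ± 5.77 TPM, both below Shmt1 at 135 ± 6.13 TPM, and libraries overlapped between Mthfd1l and Shmt2, between Shmt2 and Amt and between Tdh and Gcat. On this scale Tdh was at 18.3 ± 2.59 TPM in WT and 93.2 ± 11 TPM in KO EpiLCs, where its libraries overlapped those of Mthfd1l and Amt, its neighbours in the order.

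How the libraries of a group stood to each other in the members depended on the scale. In log2 CPM, WT replicate 2 was above the mean of the WT libraries in 9 of 10 members, all but Tdh. KO replicate 2 was above the KO mean in 9 of 10 as well, again all but Tdh. WT replicates 1 and 3 were above their mean in 3 members each, KO replicate 1 in 6 and KO replicate 3 in 3. In TPM, KO replicate 2 was instead below the KO mean in every member, such as Amt at 121 against a mean of 130. WT replicate 2 was below the WT mean in Tdh, Shmt2 and Mthfd1l on that scale. The share of all genes above the mean in each library was not counted.

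The wider pathway was read from 50 genes of folate, glycine, serine and methionine metabolism that are not members, of which 41 passed the filter on low counts. Of these, 12 were called at an adjusted p below 0.1, 4 higher and 8 lower in KO EpiLCs, or 29.3% beside 24.3% of all genes tested. Their median log2 fold change was −0.039, and that of all genes tested 0.0014. With the replicate block, 4 were called higher and 10 lower, the additions being Mat2a (−0.24, adjusted p = 0.0225 from edgeR, on chromosome 6 with a local median of −0.52) and Gnmt (−0.55, adjusted p = 0.0861 from edgeR). Over all genes tested, 4764 were called with the block against 3833 in the main fit. The count of lower pathway genes was 5 without WT replicate 2 and 5 without KO replicate 2. In these 2 fits the calls over all genes fell as well, to 3189 and 3147. Ftcd, Sds, Sdsl, Agxt, Dao, Sardh, Dmgdh, Bhmt and Bhmt2 were not tested.

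**Figure D5:**
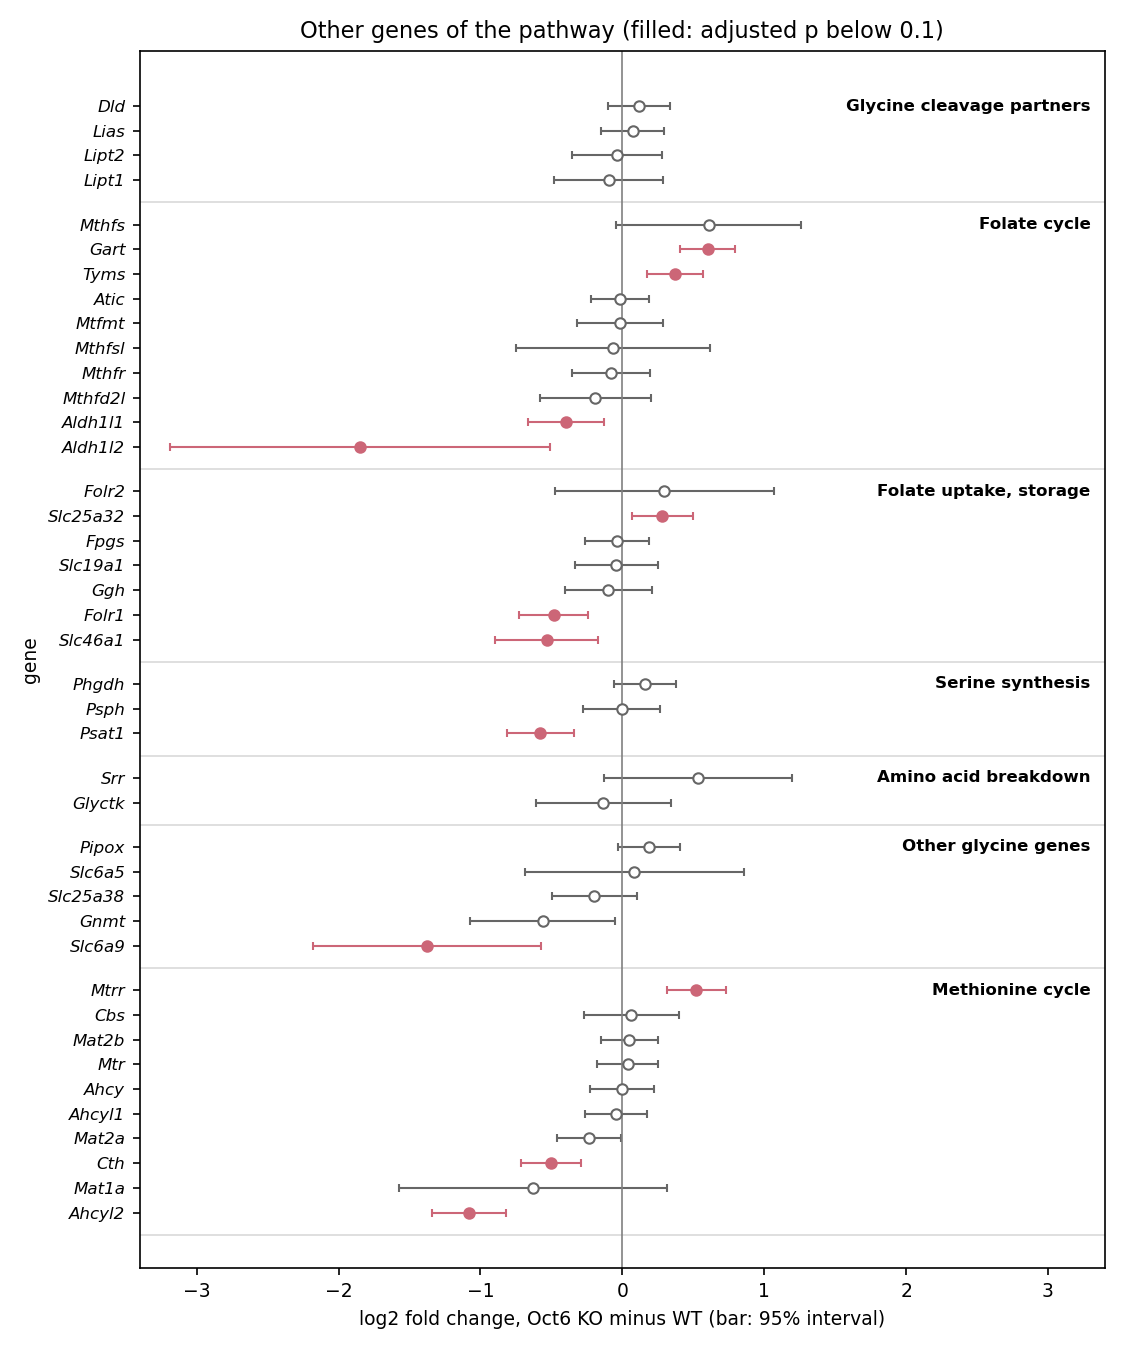
Log2 fold changes, Oct6 KO minus WT, with 95% intervals (horizontal axis) of the 41 further pathway genes tested, by list (vertical axis), filled where the adjusted p from edgeR was below 0.1. The 4 filled points above 0 are Gart, Tyms, Slc25a32 and Mtrr, and the other 8 lie below 0.

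None of the 4 partners of glycine cleavage, the dehydrogenase Dld and the lipoate enzymes Lias, Lipt1 and Lipt2, was called, nor had any an unadjusted p below 0.05 in edgeR or an adjusted p below 0.1 in DESeq2. Of 10 tested genes of the folate cycle, 2 were called higher and 2 lower, beside 11.8% and 12.5% of all genes tested. Tyms, thymidylate synthase, had 118, 124 and 112 CPM in the WT libraries against 151, 156 and 149.5 CPM in the KO libraries, so that each KO library was higher than each WT library (log2 fold change 0.37, SE 0.094, edgeR adjusted p = 0.0082). Gart, which uses formyl-tetrahydrofolate in purine synthesis, rose from 691 ± 49.5 (SD, n = 3) to 1048 ± 20.5 CPM (log2 difference 0.60, SE 0.093, edgeR adjusted p = 1.5e-04). It lies on chromosome 16, where the genes within 10 Mb had a median of 0.49, and was 0.11 beyond it. Atic, which catalyses a later formyl transfer of the same synthesis, differed by −0.014 on the log2 scale (SE 0.097).

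Both genes of this folate cycle list that fell, which does not hold the members Shmt2 and Mthfd2, encode formyl-tetrahydrofolate dehydrogenases. Aldh1l1, the cytosolic form, had 27.7, 31.7 and 32.2 CPM in the WT libraries against 23.5, 20.7 and 25.2 CPM in the KO libraries (log2 difference −0.40, SE 0.13, edgeR adjusted p = 0.0342). Its neighbours on chromosome 6 had a median of −0.52, so that Aldh1l1 was 0.12 above them, and it was no longer called without KO replicate 2 (−0.33). Aldh1l2, the mitochondrial form, was near the lower limit of detection, with 14, 19 and 23 counts in WT and 13, 1 and 1 counts in KO libraries. KO replicate 1 was within the range of WT in CPM. The log2 fold change was −1.85 (SE 0.64, edgeR adjusted p = 0.0492), and the call was lost in DESeq2 (adjusted p = 0.101) and without replicate 2 or 3 of either group (−1.78 to −1.35, adjusted p up to 0.210). Without KO replicate 1 the difference was −4.08 (edgeR adjusted p = 0.00145).

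Of 7 genes of folate uptake and storage, 1 was called higher and 2 lower, beside 11.8% and 12.5% of all genes tested. Folr1, a folate receptor, had 72.8, 63.7 and 56.2 CPM in the WT libraries against 45.1, 42.6 and 50 CPM in the KO libraries (log2 difference −0.48, SE 0.12, edgeR adjusted p = 0.0058). Slc46a1, the proton-coupled folate transporter, fell from 11.7 ± 0.923 (SD, n = 3) to 8.04 ± 0.831 CPM (−0.53, SE 0.17, edgeR adjusted p = 0.0358), and was not called without WT replicate 2 (−0.48) or KO replicate 2 (−0.45). The mitochondrial folate carrier Slc25a32 rose from 63.8 ± 5.83 to 77.6 ± 1.19 CPM (0.28, SE 0.10, edgeR adjusted p = 0.0609). This call was lost without a filter on low counts and in each fit that left out a library except WT replicate 3, with adjusted p-values up to 0.193. Slc19a1, the reduced folate carrier, differed by −0.042 on the log2 scale (SE 0.14).

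Of the genes that supply serine and glycine, 1 of 3 tested genes of serine synthesis and 1 of 5 of other glycine formation and uptake fell, beside 12.5% of all genes tested. Psat1, the aminotransferase of serine synthesis, had 251, 337 and 268 CPM in the WT libraries against 190, 209 and 175 CPM in the KO libraries, with no overlap (log2 fold change −0.58, SE 0.11, edgeR adjusted p = 0.0012). The other enzymes of serine synthesis, Phgdh and Psph, had log2 differences of 0.16 (SE 0.11) and −0.0039 (SE 0.13) and were not called. Slc6a9, the glycine transporter GlyT1, had 2.24, 6.02 and 3.99 CPM in the WT libraries against 0.810, 2.16 and 1.65 CPM in the KO libraries (−1.38, SE 0.38, edgeR adjusted p = 0.0153). Its libraries varied widely, and without WT replicate 2 it was −1.02 and not called (adjusted p = 0.107). Neither of the 2 tested genes of serine, threonine and glycine breakdown, Srr and Glyctk, was called, and neither had an unadjusted p below 0.05 in edgeR or an adjusted p below 0.1 in DESeq2.

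In the methionine cycle, 1 of 10 tested genes was called higher and 2 lower, beside 11.8% and 12.5% of all genes tested. Mtrr, the reductase that keeps methionine synthase active, had 53.3, 57.6 and 58.4 CPM in the WT libraries against 77.6, 82.5 and 83.0 CPM in the KO libraries (log2 fold change 0.52, SE 0.099, edgeR adjusted p = 9.2e-04). Methionine synthase itself, Mtr, differed by 0.039 on the log2 scale (SE 0.10). Cth, cystathionine gamma-lyase, which leads sulfur from the cycle to cysteine, had 101, 121 and 115 CPM in the WT libraries against 76.3, 77.4 and 83.6 CPM in the KO libraries (−0.50, SE 0.10, edgeR adjusted p = 0.0015). Ahcyl2, a relative of the enzyme that breaks down adenosylhomocysteine, fell from 50.4 ± 3.27 (SD, n = 3) to 23.8 ± 3.31 CPM (−1.08, SE 0.12, edgeR adjusted p = 7.6e-06). It lies on chromosome 6 amid a local median of −0.53 and was −0.55 beyond it. Of the 12 called genes of the wider pathway, 3 lay on chromosomes 6 and 16, Aldh1l1, Ahcyl2 and Gart, and 9 elsewhere.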

How the data were processed

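RNA-seq was performed on 3 WT and 3 Oct6 KO EpiLC libraries prepared with a stranded total RNA kit. The authors used Fastp for trimming and STAR, in its two-pass mode, for alignment to GRCm39, and deposited raw counts per gene, without normalization or a filter. Tool versions, the release of the annotation, strand settings and the handling of reads with several matches are not given in the sources used here. From these counts, 54749 of 55416 identifiers were matched to GENCODE M39 for symbols, positions and exon lengths.

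Genes were tested in R 4.3.3 with edgeR 4.0.16 (TMM, filterByExpr with a minimum count of 10, quasi-likelihood test, genotype as the only term, Benjamini-Hochberg adjustment over 15746 genes, calls at an adjusted p below 0.1). Standard errors were derived from the F statistic. Log2 CPM used a prior count of 2. TPM were counts per exon length, scaled to a fixed sum. The script was tested on simulated data. The members, lists and tests were chosen with earlier results of these data known. A gene of the wider pathway is not reported here. Of the genes outside the members, the text names by rule those of the wider pathway with an adjusted p below 0.1 (up to 25), those tested within 500 kb of Tdh, and the 5 with a profile nearest to Tdh. Other pathway genes named were chosen after their values were seen.

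The series describes the replicates as paired. Over 14793 genes with a mean of at least 1 CPM, which are not independent replicates, deviations from the group means correlated at 0.212, 0.252 and 0.102 between a WT and a KO library of equal number. Between unequal numbers r was −0.195 to −0.0233. Deviations within a group sum to 0, so that positive values at equal numbers bring negative ones at unequal numbers. The latter are no separate evidence of pairing. In view of the description and of the values at equal numbers, a fit with the replicate number as a block was run. Libraries of a group were not copies, with a chi-square per degree of freedom from 6.31 to 10.6. Alternatives were DESeq2 1.42.0, RLE size factors, library totals alone, no filter, 10 counts in every library, the replicate block, a threshold of 0.05 and the removal of 1 library at a time. The length of the canonical transcript was added after seeing the data. Precision is carried by the standard errors and by the SD over libraries.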

Additional observations from a re-analysis of the deposited data

How the results depend on the processing

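Of 120 values of the log2 fold changes of the 10 members under the alternatives, 109 kept their direction and their side of the threshold. The changes of side were all gains, of Gcat and Shmt1 with the replicate block and without WT replicate 2 and of Shmt1 without KO replicate 3. With the replicate block, 4 members were called higher, and the count ranged from 2 to 4 with a library left out, while 2 were called lower in each of these fits. Over all genes, 3833 were called in the main fit, 4764 with the block and 3058 to 3790 with a library left out. Leaving out a library turned the direction in Amt (from −0.046 to 0.11), Gcsh (−0.029 to 0.11), Mthfd1 (−0.064 to 0.036) and Mthfd1l (−0.059 to 0.023), none of them called. Of the 12 called genes of the wider pathway, none turned direction, and with a library left out 3 to 4 were called higher and 5 to 9 lower among all pathway genes. Among the neighbours of Tdh, Pinx1 turned to −0.022 with library totals alone, −0.0016 without a filter and −0.00036 with the replicate block, and ran from −0.17 to 0.14 with a library left out, Defb30 from −0.10 to 0.81 and Fam167a from −0.0031 to 0.47. Over all genes, 584 rather than 978 passed both the adjusted p and a log2 fold change of at least 1 with a minimum of 10 counts in every library, a setting that tests 13878 genes. The replicate block changed no call other than those of Gcat, Shmt1, Mat2a, Gnmt and Fdft1 among the members, the 41 genes of the wider pathway and the 8 neighbours of Tdh. Calls of marker genes were not compared with the block.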
